A study of Mus musculus with 3 samples.

Results

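The interferon response genes described here are 34 genes whose transcription interferons raise in most vertebrate cells, chosen by name from the 33696 features measured. All 34 symbols are in the feature list, 1 of them (Ddx58, the RNA sensor RIG-I) under its newer symbol Rigi. Their unique molecular identifier (UMI) counts were compared between 3 single-cell RNA libraries from kidneys of male mice, in endothelial, leukocyte and tubule cells. The young library came from mice of 3 to 4 months given the control treatment, the aged library from mice of 20 months given vehicle, and the aged D+Q library from mice of 20 months given D+Q, the usual short form in senolytic work for dasatinib with quercetin. The labels give no strain, dose or schedule and do not say whether a library is 1 mouse or a pool. With 1 library per group there is no spread between mice to test against. Every interval below is an exact 95% interval that covers counting error only, and no difference is shown to belong to age or treatment rather than to the library.

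Interferons are secreted proteins that bind paired receptor chains and activate JAK kinases. Type I and type III interferons lead to ISGF3, a complex that includes STAT2 and IRF9 and binds the interferon-stimulated response element, while interferon-gamma acts through the gamma-activated site. In uninfected tissue a low level of many of these genes is held by weak continuous signalling, and endothelial cells, which line the vessels and meet circulating cytokines, are among the cells that show it.

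These elements are the sequence feature by which such genes are known, so promoter stretches of 8 members are printed first. RefSeq promoter windows on GRCm38.p6, each running from 250 bases before to 50 bases after the transcription start, were found for 29 of the 34 members (not for Usp18, Dhx58, Iigp1, Ifi27 and Parp14). The core of the interferon-stimulated response element was searched as GAAA, any 2 bases and GAAA again, and the gamma-activated site as TTCNNNGAA, on both strands, counting overlapping matches and letting the motifs share bases. The first was present in 17 of the 29 members (58.6%), against 3.99% of 27025 genes with a window. The second was present in 10 of 29 (34.5%), against 9.55% of genes, 6 members held both, and 8 held neither, among them Ifi44, Sp100, Oasl2 and Xaf1. Capitals below mark matches to the response element core on either strand, and each stretch is given 5′ to 3′ on the strand of its gene.
Isg15 (chr4:156200863-156200908, minus strand): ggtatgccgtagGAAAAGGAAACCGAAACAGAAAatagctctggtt
Bst2 (chr8:71537575-71537614, minus strand): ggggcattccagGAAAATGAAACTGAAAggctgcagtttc
Irgm2 (chr11:58214901-58214934, plus strand): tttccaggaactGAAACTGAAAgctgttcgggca
Ifit1 (chr19:34640773-34640825, plus strand): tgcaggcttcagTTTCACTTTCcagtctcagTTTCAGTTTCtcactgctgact
Ifit3 (chr19:34583361-34583428, plus strand): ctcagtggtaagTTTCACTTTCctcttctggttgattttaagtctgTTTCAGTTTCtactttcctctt
Rsad2 (chr12:26456551-26456584, minus strand): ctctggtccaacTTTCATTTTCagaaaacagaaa
Gbp2 (chr3:142620592-142620625, plus strand): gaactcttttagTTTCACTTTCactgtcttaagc
Gbp7 (chr3:142530271-142530304, plus strand): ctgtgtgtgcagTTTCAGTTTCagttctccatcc
In Isg15, 3 matches overlap in 1 run, and in Bst2 2 matches do. In Ifit1, Ifit3, Rsad2, Gbp2 and Gbp7 the match lies on the opposite strand and reads as its reverse complement. The 68 bases printed for Ifit3 also stand, letter for letter, before Ifit3b (chr19:34607757-34607824), a near copy of Ifit3. The labels do not say how reads shared by such copies were counted, so values of Ifit3 and Ifit3b, and of the related Gbp and Irgm genes, are uncertain by that. A match is a description of letters and shows no binding.

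The 3 libraries held 8615, 6027 and 8037 barcodes (young, aged, aged D+Q) and 24346733, 13944270 and 21058975 counts, with medians of 2391, 1883 and 2299 counts per barcode. After filters 7689, 5713 and 7411 barcodes were kept, and between 28 and 38 barcodes occurred in both libraries of a pair. Cells were assigned by gates that need UMIs of at least 3 different markers of a class and few markers of other classes. These are gates on transcripts, not types named by the study. The endothelial gate held 547, 324 and 430 cells, the leukocyte gate 24, 37 and 32, and the tubule gate 5272, 4329 and 5645.

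All 12 endothelial markers were detected in endothelial-gated cells of each library, summing to 4427, 3128 and 4836 CPM (counts scaled to the total of the gate, as in bulk RNA-seq), against 119, 104 and 114 CPM in tubule-gated cells. Proximal tubule markers, which endothelial cells should lack, nevertheless summed in endothelial-gated cells to 71.2%, 76.6% and 63.8% of their level in tubule-gated cells. The counts of a gate thus include transcripts of other cells, and how many was not measured. Because this share and the endothelial markers differ between the libraries, levels per endothelial count are given below beside levels scaled to the gate total. This was done for the sums, for the numbers of members past 1.5-fold and for some single members. Counts are of 3′ ends, 1 per molecule, and were not divided by gene length.

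Summed over all 34 members, the interferon genes stood at 1451 CPM (1393 to 1510) in young endothelial-gated cells, 1086 (1022 to 1153) in aged and 1206 (1146 to 1269) in aged D+Q. In tubule-gated cells the sums were 295, 294 and 275 CPM, so the tubule level was 20.4%, 27.1% and 22.8% of the endothelial one. The highest endothelial level was in the young library, and its interval overlapped neither of the other intervals. On the log2 scale the aged sum differed from the young by −0.42 (−0.52 to −0.31) in endothelial-gated and by −0.01 (−0.08 to 0.07) in tubule-gated cells. The D+Q sum differed from the aged by 0.15 (0.04 to 0.27) and −0.10 (−0.17 to −0.03). Both comparisons use the same aged library, so a low or high value there moves them in opposite directions.

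**Figure D1:**
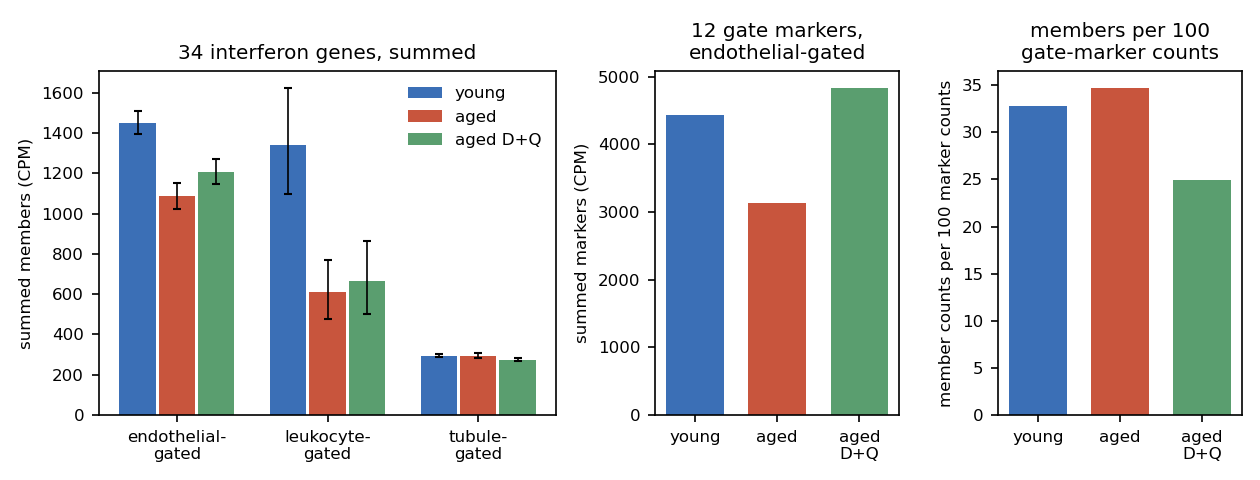
Left, summed level of the 34 interferon genes (CPM) in endothelial-, leukocyte- and tubule-gated cells of the 3 libraries, with exact 95% Poisson intervals as error bars. Middle, summed level of the 12 endothelial gate markers (CPM) in endothelial-gated cells, and right, member counts per 100 counts of those markers: in endothelial-gated cells the members' CPM is lowest in the aged library, as is the markers', while members per marker count are lowest in the aged D+Q library (24.9).

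Levels of endothelial genes in the gate moved in the same direction as the interferon genes. Whether the gate held a smaller share of endothelial transcripts or its cells had lower levels of these genes was not tested. The 12 gate markers differed between aged and young by a log2 ratio of −0.50 (−0.56 to −0.44), and 20 other endothelial genes that the gate does not use, such as Cldn5 and Erg, by −0.62 (−0.72 to −0.52). Between aged D+Q and aged the 2 lists differed by 0.63 (0.57 to 0.69) and 0.67 (0.56 to 0.77). Per 100 gate-marker counts there were 32.8, 34.7 and 24.9 member counts, and per 100 counts of the 20 other endothelial genes 84.6, 97.4 and 68.2. Scaled to the gate markers, the summed members were thus at 0.084 in aged against young and −0.48 in aged D+Q against aged, and scaled to the other endothelial genes at 0.20 and −0.52. The direction of both comparisons therefore depended on what the counts were divided by, and these scalings were chosen after the values were seen. Erythroid markers, at 319, 1023 and 206 CPM in endothelial-gated cells, were highest in the aged library, T or NK cell markers summed to 4.82, 23.4 and 8.87 CPM, and macrophage markers to 49.96, 86.5 and 74.2 CPM. Median mitochondrial shares of these cells were 6.01%, 3.4% and 5.71%. The part of these differences in the result was not tested.

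In endothelial-gated cells 26 of the 34 members passed the floor on low counts, which asks for 30 counts in the 3 libraries together and an average level of 5 CPM. Of these 26, 0 were at least 1.5-fold higher and 7 at least 1.5-fold lower in aged than in young. Over all 11263 genes past the same floor, 12.0% were higher and 9.61% lower by that fold. The members' median log2 ratio was −0.29 and that of all genes 0.07, with 20 members below 0 and 6 above. The intervals of 6 members lay below 0, and 0 lay above.

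The antiviral effectors held the most abundant member. Rsad2 encodes viperin, an enzyme that makes a chain-terminating nucleotide, and had 327, 149 and 271 counts in endothelial-gated cells (young, aged, aged D+Q), or 197, 152 and 218 CPM. The aged library was the low one, at a log2 ratio of −0.37 (−0.67 to −0.09) to young, and D+Q against aged stood at 0.53 (0.23 to 0.83). Divided by the gate markers, the same counts gave 0.13 (−0.17 to 0.41) and −0.10. Bst2, or tetherin, which holds budding virions at the cell surface, had 59, 20 and 25 counts (35.5, 20.3 and 20.2 CPM). Both aged libraries were low, and aged against young was −0.78 (−1.61 to −0.05), but −0.28 (−1.11 to 0.45) by the gate markers. Xaf1, a promoter of apoptosis, had 48, 16 and 20 counts (28.9, 16.3 and 16.1 CPM), the same order, at −0.80 (−1.74 to 0.01), an interval that reaches 0.

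Among the IFI genes, Ifi44 showed the largest difference between aged and young of any member past the floor. Ifi44 encodes a GTPase-like protein that restrains virus replication and cell growth. It had 239, 60 and 135 counts, or 144, 61.0 and 109 CPM, with intervals of 126 to 163, 46.6 to 78.6 and 91.2 to 129, so the aged library was apart from the other two. Aged against young was −1.23 (−1.67 to −0.82) and D+Q against aged 0.83 (0.39 to 1.30). It was the only member at least 1.5-fold lower in aged under both endothelial scalings, at −0.73 (−1.17 to −0.32) by the gate markers and −0.61 (−1.05 to −0.20) by the other endothelial genes. D+Q against aged kept its sign but was 0.20 by the gate markers. The counts were spread over 162, 49 and 92 cells with at most 5 UMIs in 1 cell, so no single cell carried them. Ifi35, which binds the IRF-family partner NMI, had 57, 25 and 17 counts (34.3, 25.4 and 13.7 CPM), lowest with D+Q, at −0.88 (−1.87 to 0.05) against aged. Ifi27, a mitochondrial and nuclear membrane protein, had 61, 31 and 52 counts (36.7, 31.5 and 41.9 CPM), with overlapping intervals.

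Sp100 forms nuclear bodies that silence viral genomes. It had 323, 118 and 158 counts (194, 120.0 and 127 CPM), high in young only, at −0.69 (−1.01 to −0.39) in aged against young and 0.08 (−0.27 to 0.44) in D+Q against aged. Scaled to the gate markers the first became −0.19 (−0.51 to 0.11). Of the ubiquitin ligases and the PARP, Rnf213, a large ATPase and ligase, was at 110.2, 88.5 and 104 CPM, Trim25, the ligase that modifies RIG-I, at 49.4, 50.9 and 49.2 CPM, and Parp14, an ADP-ribosyltransferase, at 40.9, 33.6 and 41.9 CPM. None of these 3 differed by 1.5-fold, and their intervals in the libraries overlapped.

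The GTPases that attack the vacuoles of intracellular pathogens, and that interferon-gamma raises strongly, were split. Iigp1, an effector of this family, had 115, 41 and 60 counts (69.2, 41.7 and 48.4 CPM). Aged against young was −0.72 (−1.28 to −0.21), but −0.22 (−0.78 to 0.30) by the gate markers. Irgm2, a regulator of the effectors, had 61, 22 and 16 counts (36.7, 22.4 and 12.9 CPM), at −0.69 (−1.49 to 0.01) and −0.78 (−1.82 to 0.20). Irgm1, another regulator, had 19, 12 and 16 counts and showed no detectable difference at this depth. Igtp had 0 counts in every gate and library, and 3 counts, taken as the limit that a 0 allows, would be 0.228, 0.343 and 0.222 CPM in tubule-gated cells. That limit covers counting error only, and the labels do not say whether reads of Igtp could be lost in counting. Gbp7 was at 47.6, 36.6 and 40.3 CPM, and Gbp3 had 15, 6 and 7 counts. Gbp2 had 19, 16 and 9 counts, with 6 of the 16 aged UMIs in 1 cell, and its ratio in D+Q against aged was −1.13 (−2.53 to 0.10).

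The transcription factors carry the signal to the genes. Stat2 was at 63.8, 62.0 and 66.9 CPM, Irf9, its DNA-binding partner, at 28.3, 35.6 and 29.8 CPM, and Irf1, a factor that interferon-gamma raises, at 39.7, 35.6 and 37.9 CPM. Summed with Irf7 (11, 4 and 4 counts) these 4 factors stood at −0.01 (−0.33 to 0.30) in aged against young and 0.00 (−0.33 to 0.34) in D+Q against aged, so no difference was detectable on this scale. Scaled to the gate markers and to the other endothelial genes, Irf9 stood at 0.84 (0.16 to 1.495) and 0.96 (0.28 to 1.62) in aged against young, and Stat2 at 0.47 (−0.02 to 0.93) and 0.59 (0.10 to 1.05). The median of all genes under these scalings was 0.57 and 0.69, inside the intervals of both genes. By them 49.0% and 60.4% of all genes were at least 1.5-fold higher, so neither factor stood apart from the table. The sensors of foreign RNA were Ddx58, at 54.8, 47.8 and 46.8 CPM, Ifih1 (MDA5), at 36.1, 28.5 and 28.2 CPM, and Dhx58 (LGP2), with 5, 5 and 1 counts. Of the enzymes that act on double-stranded RNA, the kinase Eif2ak2 (PKR) was at 33.1, 38.6 and 24.99 CPM and the deaminase Adar at 28.3, 26.4 and 26.6 CPM. Eif2ak2 was past 1.5-fold in D+Q against aged, at −0.62 (−1.36 to 0.09).

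The genes most often used as interferon reporters were sparse. Ifit1, whose protein binds capped viral RNA, had 24, 11 and 15 counts (14.4, 11.2 and 12.1 CPM), and Ifit2, Ifit3 and Ifit3b had 14, 4 and 9, then 17, 10 and 12, then 3, 2 and 2. The ubiquitin-like Isg15 had 12, 3 and 4 counts, and Usp18, the protease that removes it, 19, 10 and 10. Intervals of all 6 overlapped between libraries. Oasl2, a relative of the 2-5A synthetases, had 69, 24 and 35 counts (41.5, 24.4 and 28.2 CPM), at −0.75 (−1.50 to −0.08), while the synthetase Oas1a had 9, 3 and 2 counts.

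**Figure D2:**
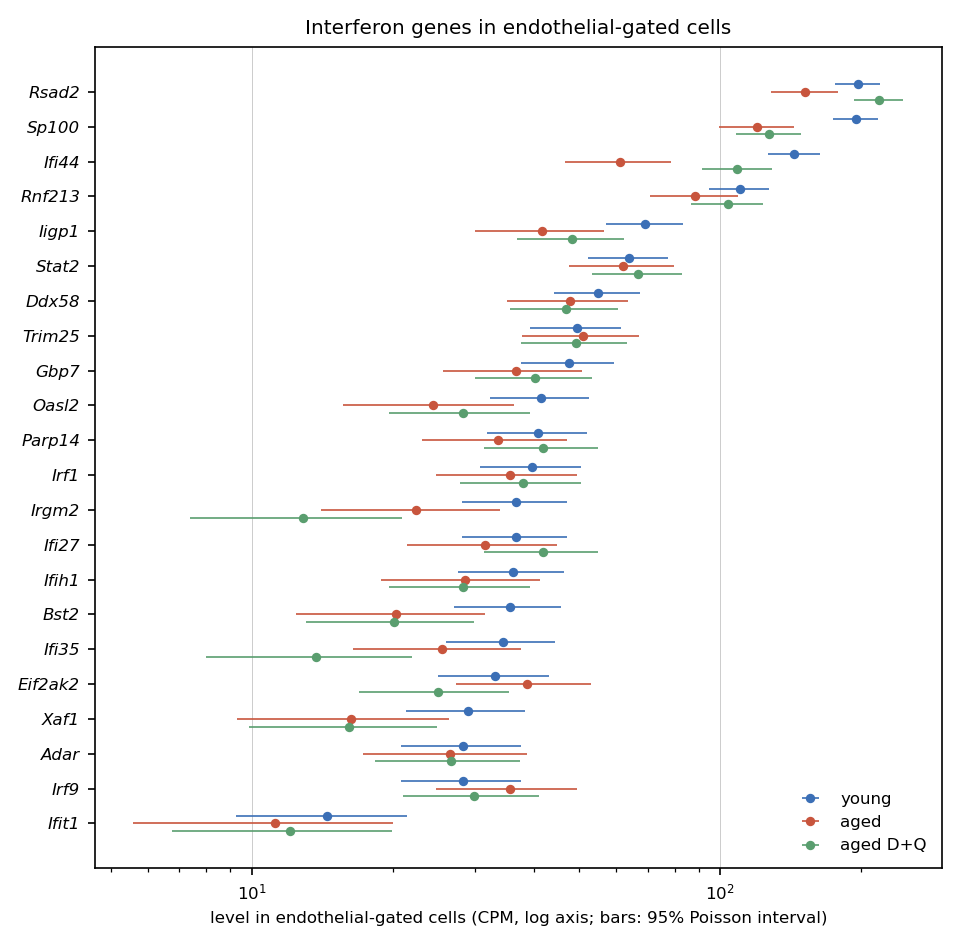
Level (CPM, log axis) of the 22 members with at least 20 counts in 1 library of endothelial-gated cells, 1 row per gene and 1 point per library, with exact 95% Poisson intervals. Young points lie right of the aged points for Ifi44, Sp100 and Iigp1 without overlap of the intervals, while Stat2, Trim25 and Adar lie together.

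In the comparison of aged D+Q with aged, 1 of the 26 members was at least 1.5-fold higher (Ifi44) and 4 at least 1.5-fold lower (Gbp2, Eif2ak2, Ifi35 and Irgm2). The background over all genes was 9.75% higher and 11.0% lower. The intervals of Ifi44 and Rsad2 lay above 0 and those of 0 members lay below. The median was 0.03 for members and −0.06 for all genes. Scaled to the gate markers, 0 members were higher and 13 lower by 1.5-fold, against 1.62% and 59.4% of all genes. By that scaling Gbp2 stood at −1.76 (−3.15 to −0.53) and Ifi35 at −1.51 (−2.50 to −0.57). Irgm2 stood at −1.41 (−2.45 to −0.43) and Eif2ak2 at −1.25 (−1.99 to −0.54), where the median of all genes was −0.69. Scaled to the other endothelial genes, 0 were higher and 14 lower, against 1.41% and 62.6%. For aged against young the gate markers gave 4 higher and 1 lower, against 49.0% and 2.27% of all genes, and the other endothelial genes 7 higher and 1 lower, against 60.4% and 1.66%. The 1 lower member was Ifi44 in both, and the 4 higher included Gbp2, Irf9 and Eif2ak2, at 1.02, 0.84 and 0.73. These scalings moved the median of all genes to 0.57 and 0.69 in aged against young and to −0.69 and −0.72 in D+Q against aged. The members' medians were 0.21 and 0.33, then −0.59 and −0.63. A fold under these scalings is therefore read against a whole table that moved the same way.

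Most members were higher in endothelial-gated than in tubule-gated cells of the same library. The interval of the log2 ratio lay above 0 for 30, 27 and 23 of the 34 members (young, aged, aged D+Q), in all 3 libraries for 22, and below 0 for 0. Among the 26 members past the endothelial floor it lay above 0 for 24, 23 and 21, against 33.2%, 28.5% and 31.8% of all genes past that floor, and below 0 for 0, against 10.1%, 6.20% and 10.4%. Their median log2 ratios were 2.24, 1.88 and 1.88, and those of all genes 0.20, 0.24 and 0.21. Members and other genes passed this floor on endothelial counts alone, so it favours genes high in that gate. Ifi44, Oasl2, Parp14, Xaf1, Gbp2, Ifit1, Ifit3 and Usp18 passed it but were below the tubule floor. Ifi44 stood at 5.32, 4.29 and 4.74, Sp100 at 5.08, 4.01 and 4.52, and Rsad2 at 4.62, 4.14 and 4.60. At the other end Trim25 stood at 0.23, 0.41 and 0.40 and Irgm1 at 0.49, 0.60 and 0.72, with intervals that reach 0 in each library. The group thus ranged from genes found mostly in the endothelial gate to genes of nearly even level.

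Single cells showed the same contrast when every cell was thinned to 1000 UMIs, which left out 0 cells. A UMI of any member was found in 68.6% (64.5 to 72.4) of young, 60.5% (54.9 to 65.9) of aged and 61.6% (56.8 to 66.2) of D+Q endothelial-gated cells, against 24.3%, 23.1% and 23.6% of tubule-gated cells. Without thinning the endothelial shares were 87.8%, 85.5% and 88.6%. UMIs of at least 3 different members were in 19.7% (16.5 to 23.3), 12.0% (8.70 to 16.1) and 14.0% (10.8 to 17.6) of endothelial-gated cells, and in 0.607%, 0.716% and 0.354% of tubule-gated cells. Rsad2 was in 18.8%, 11.7% and 19.5% and Ifi44 in 12.2%, 5.25% and 11.2% of thinned endothelial-gated cells, the aged library being lowest for both. Sp100 was in 18.3%, 14.8% (11.1 to 19.2) and 10.9% (8.14 to 14.3), lowest in the D+Q library, whose interval overlaps the aged one. In tubule-gated cells, where free RNA would appear, the shares were 0.816%, 0.762% and 0.868% for Rsad2 and 0.360%, 0.323% and 0.407% for Ifi44, at median depths of 2304, 1808 and 2223 counts against 2543, 2460 and 2452 in the endothelial gate. Unthinned endothelial shares were 36.6%, 30.2% and 36.5% for Rsad2 and 29.6%, 15.1% and 21.4% for Ifi44.

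Endothelial-gated cells were divided by subset markers after the values were seen, into 88 cells with glomerular and 798 with peritubular or venous markers, both summed over the libraries. The glomerular markers summed to 513, 417 and 549 CPM in the whole endothelial gate and to 474, 321 and 454 CPM in tubule-gated cells. The peritubular or venous markers summed to 1351, 1246 and 1657 CPM against 566, 560 and 542 CPM. The glomerular markers thus barely set the gates apart, and the part of tubule transcripts in that subset was not tested. Rsad2 was at 215 CPM (198 to 234) in the peritubular or venous and 91.6 (59.9 to 134) in the glomerular cells. Ifi44 was at 126 (113 to 141) and 56.4 (32.2 to 91.6), Sp100 at 162 (147 to 179) and 88.1 (57.0 to 130.1), and Iigp1 at 62.3 (53.0 to 72.8) and 24.7 (9.92 to 50.8), with intervals apart for all 4. Rnf213, at 103 and 95.2, and Stat2, at 66.2 and 81.1, had overlapping intervals. The summed members in aged against young were −0.60 (−1.09 to −0.14) in the glomerular and −0.50 (−0.63 to −0.37) in the peritubular or venous cells, and in D+Q against aged 0.42 (−0.12 to 0.97) and 0.18 (0.05 to 0.32). In the 15 cells with arterial markers, which held 73 member counts, the signs were opposite, at 0.74 (−0.15 to 1.58) and −1.04 (−1.97 to −0.11). These were 6, 3 and 6 cells by library, with 30, 21 and 22 member counts. Both ratios thus rest on the same 3 aged cells, too few to read a difference from.

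In tubule-gated cells 18 of the 34 members passed the floor, and few differed by 1.5-fold. Their median log2 ratio in aged against young was −0.07 and that of all genes 0.06. Intervals lay above 0 for 2 of the 18 and below 0 for 4. In D+Q against aged they lay above 0 for 1 and below 0 for 3. Rnf213 was the 1 member at least 1.5-fold higher in aged than in young, and Gbp7 the 1 lower, against 4.60% and 3.62% of all 11228 genes. Rnf213 had 337, 351 and 454 counts (25.6, 40.2 and 33.5 CPM), at 0.65 (0.43 to 0.87), and D+Q against aged was −0.26 (−0.47 to −0.06). In endothelial-gated cells it stood at −0.31 (−0.70 to 0.06), an interval that does not overlap the tubule one. Scaled to the 2 endothelial lists it was 0.19 (−0.20 to 0.56) and 0.31 (−0.08 to 0.68), which do overlap the tubule interval. Those scalings moved the median of all endothelial-gated genes to 0.57 and 0.69. The tubule ratio is scaled to its gate total, so that overlap is between unlike scales. Gbp7 had 216, 81 and 154 counts (16.4, 9.27 and 11.4 CPM), at −0.82 (−1.21 to −0.45). Irgm2, at 19.6, 13.6 and 13.8 CPM, was also high in the young library, at −0.52 (−0.85 to −0.21). Adar had 158, 141 and 171 counts, at 0.43 (0.09 to 0.76) and, in D+Q against aged, −0.35 (−0.68 to −0.02). Ifi35 had 134, 62 and 131 counts, at −0.52 (−0.98 to −0.08) and 0.44 (0.0006 to 0.91). Trim25 was at 42.4, 38.6 and 37.6 CPM.

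The IFIT genes were below the floor in tubule-gated cells but not evenly so. Ifit1 had 5, 18 and 22 counts (0.38, 2.06 and 1.62 CPM), at 2.34 (0.95 to 4.22) in aged against young and −0.35 (−1.31 to 0.64) in D+Q against aged. Ifit3 had 20, 30 and 50 counts (1.52, 3.43 and 3.69 CPM), at 1.16 (0.31 to 2.07), and Ifit2 17, 17 and 29 counts (1.29, 1.95 and 2.14 CPM), at 0.59 (−0.47 to 1.65). The aged and D+Q levels lay above the young for these 3. Level intervals overlapped the young one for Ifit2 in both libraries and for Ifit3 in the aged library. Ifit3b, with 7, 3 and 12 counts (0.532, 0.343 and 0.886 CPM), had the opposite sign in aged against young, −0.51 (−3.22 to 1.498). Summed with Ifit3b, the 4 genes were at 3.73, 7.78 and 8.35 CPM, which was 1.06 (0.51 to 1.62) in aged against young and 0.10 (−0.35 to 0.56) in D+Q against aged. In endothelial-gated cells their sum was at 34.9, 27.5 and 30.6 CPM. A UMI of an IFIT gene or Isg15 was in 0.455% (0.292 to 0.677), 0.832% (0.583 to 1.15) and 0.957% (0.719 to 1.25) of thinned tubule-gated cells, where the young and aged intervals overlap, and unthinned in 1.02%, 1.34% and 2.16%. Ifit1 and Ifit3 were rarely in the same tubule-gated cell, in 0, 2 and 1 cells. Leukocyte markers summed to 53.2, 93.2 and 60.3 CPM in tubule-gated cells, high in the aged but not in the D+Q library, and their part in the result was not tested.

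With D+Q, 0 tubule members were at least 1.5-fold higher than in aged and 1, Iigp1, was lower, against 2.02% and 2.15% of all genes. Iigp1 had 128, 61 and 35 counts (9.74, 6.98 and 2.58 CPM), at −0.47 (−0.94 to −0.03) in aged against young and −1.42 (−2.08 to −0.81) in D+Q against aged. The endothelial gate gave 0.21 (−0.38 to 0.82) for the latter, an interval apart from the tubule one. Scaled to the gate markers or the other endothelial genes it gave −0.42 (−1.01 to 0.19) and −0.46 (−1.05 to 0.16), and both overlap the tubule interval. These scalings moved the median of all endothelial-gated genes to −0.69 and −0.72. The tubule ratio is scaled to its gate total, where that median was −0.05, so the overlap is between intervals on unlike scales. These intervals take each count as independent. The tubule counts of Iigp1 were clumped, with up to 12, 9 and 7 UMIs in 1 cell (young, aged, aged D+Q), so its tubule intervals are too narrow. Below the floor, Gbp2 had 20, 41 and 16 counts (1.52, 4.69 and 1.18 CPM), at 1.61 (0.82 to 2.47) and −1.96 (−2.92 to −1.12). Of the 41 aged counts, 13 lay in 5 cells of a small cluster led by Pkhd1l1, Lrrn4 and Muc16, and without its cells the ratios were 1.07 (0.20 to 1.98) and −1.61 (−2.67 to −0.66). Oasl2 had 59, 42 and 41 counts, at −0.67 (−1.32 to −0.01) in D+Q against aged.

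**Figure D3:**
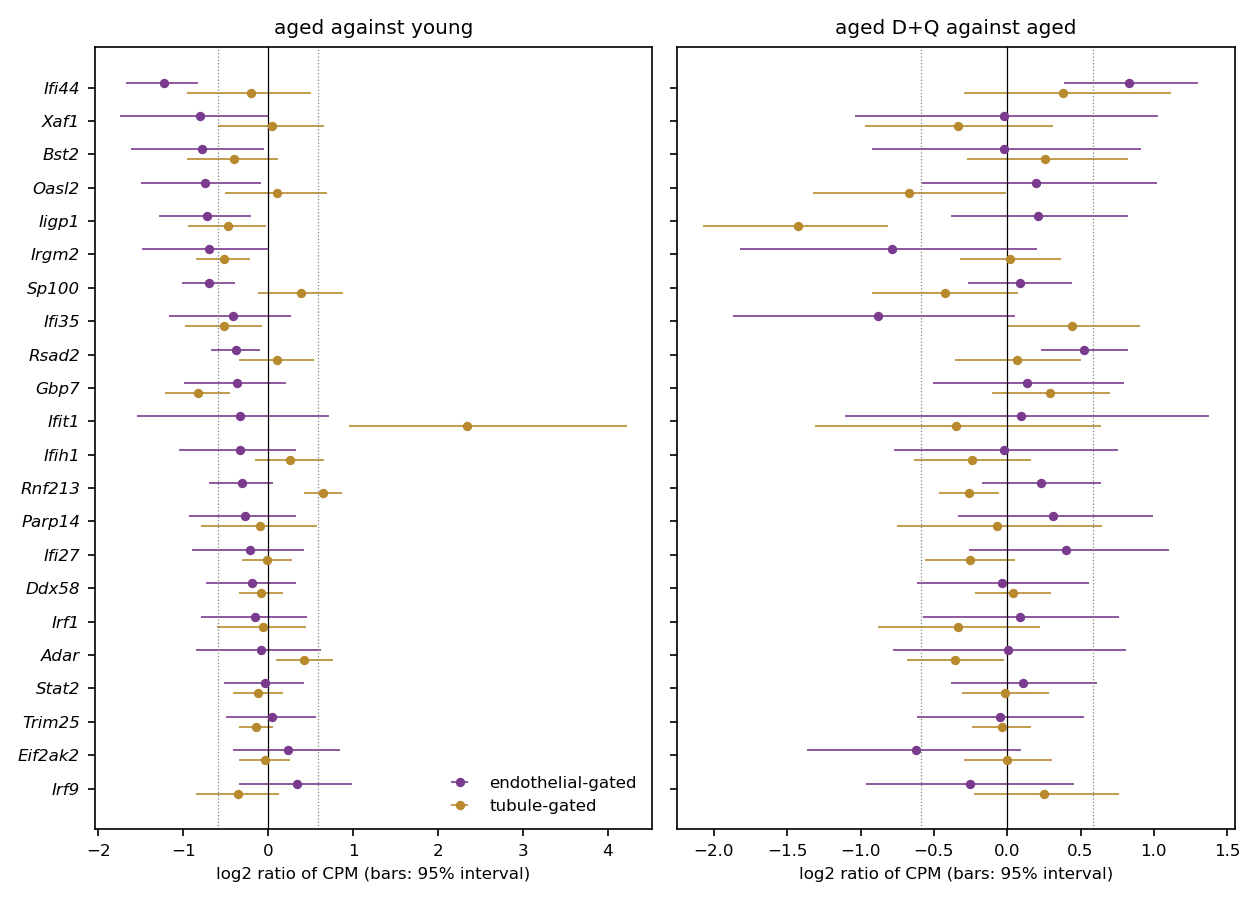
Log2 ratio of CPM for the 22 members with at least 20 counts in 1 library of both gates, aged against young on the left and aged D+Q against aged on the right, with exact 95% intervals; dotted lines mark 1.5-fold. Endothelial points lie mostly left of 0 on the left side, with Ifi44 at −1.23, while the tubule points stand apart for Ifit1 (2.34), Rnf213 (0.65), Gbp7 (−0.82) and, on the right side, Iigp1 (−1.42).

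Iigp1 in the tubule was concentrated in few cells, a pattern looked for after its values were seen. Its 128 counts in young lay in 59 cells, with up to 12 UMIs in 1 cell. At least 2 Iigp1 UMIs were found in 14 of 5272 young cells (0.266%, 0.145 to 0.445), 12 of 4329 aged (0.277%, 0.143 to 0.484) and 5 of 5645 D+Q cells (0.0886%, 0.0288 to 0.207), and the D+Q interval overlapped those of the other libraries. They held 83 of the 128 young, 37 of the 61 aged and 17 of the 35 D+Q counts. Of these 31 cells 17 also had Irgm2 (54.8%, 36.0 to 72.7), against 2.86% of the 15128 tubule-gated cells without Iigp1, and these were 7 of 14, 9 of 12 and 1 of 5 cells by library. Gbp7 was in 38.7% against 2.48%, Gbp2 in 35.5% against 0.324% and Irf1 in 25.8% against 1.07%. Outside the 34 members, the chemokine gene Cxcl10 was in 25.8% against 0.403%. Ifit1 and Ifit3 were each in 9.68% (3 cells), against 0.225% and 0.588%, and Stat2 in 22.6% against 3.97%. Rsad2 and Isg15 were in 0 of the 31 cells, which allows shares of up to 11.2% (exact interval). They were in 1.88% and 0.212% of the cells without Iigp1, so 31 cells are too few to read a difference from these zeros. Of the 31 cells 25.8% had an endothelial marker, against 24.9% of those without Iigp1, with medians of 1982 and 2126 counts and of 10 and 11 tubule markers. Among the other GTPase genes, Irgm1 was in 12.9% (4 cells) against 1.76%. Gbp3 was in 3.23% (1 cell, 0.0816 to 16.7) against 0.185%, a share inside that interval. Ifi35 was also in 1 cell, 3.23% against 2.06%. Irgm2, Gbp7, Gbp2 and Irf1 were thus more frequent in the few tubule-gated cells with Iigp1, which was not seen for every GTPase gene.

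**Figure D4:**
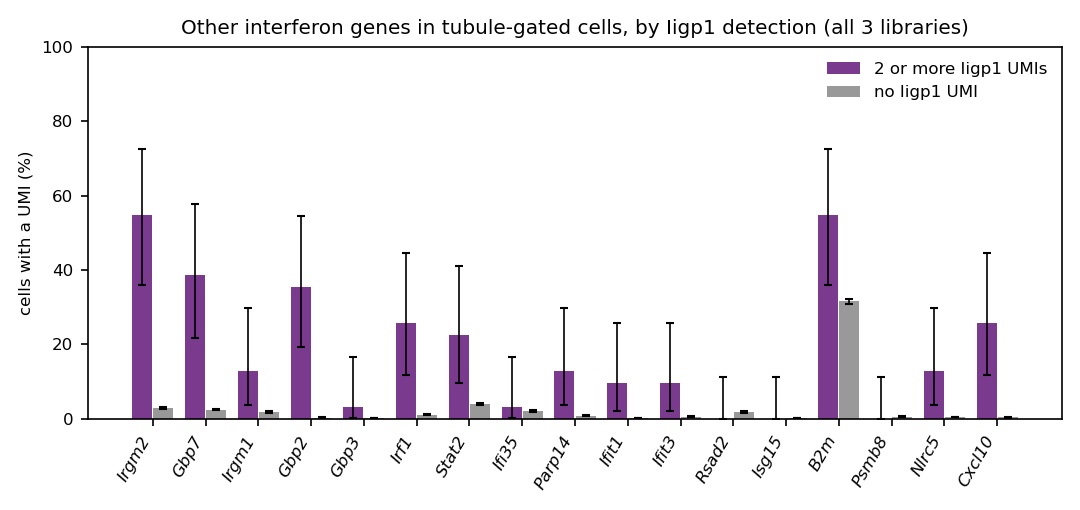
Share (%) of tubule-gated cells of the 3 libraries with a UMI of each gene, in the 31 cells with 2 or more Iigp1 UMIs and the 15128 without any, with exact 95% Clopper-Pearson intervals. Irgm2 (54.8% against 2.86%), Gbp7 and Gbp2 are frequent in the first; Rsad2 and Isg15 are at 0 there, with intervals that reach 11.2% and include their shares in the second.

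Leukocyte-gated cells were few, and their members held 104, 72 and 57 counts. The sum was at 1341 CPM (1096 to 1625) in young, 611 (478 to 769.6) in aged and 665 (504 to 862) in D+Q cells, high in the young library, with log2 ratios of −1.13 (−1.59 to −0.69) and 0.12 (−0.41 to 0.64). The median of all genes in this gate was 0.13 in aged against young. With 5 markers in the gate the first ratio was −0.37. Only Sp100 passed the floor, with 22, 8 and 8 counts (284, 67.9 and 93.3 CPM), at −2.01 (−3.44 to −0.84), so 0 members were higher and 1 lower by 1.5-fold in aged, against 22.5% and 12.5% of all 1938 genes. In D+Q against aged 0 were higher and 0 lower, against 14.8% and 18.4%. Gbp2, Isg15, Ifit2, Ifit3b, Dhx58, Oas1a and Igtp had no count in any of these cells. The makeup of the gate differed between the libraries: macrophage markers summed to 967, 2300.2 and 699.9 CPM, T or NK cell markers to 181, 102 and 198 CPM, and proximal tubule markers to 77.6%, 73.7% and 64.5% of the tubule level. Their part in the result was not tested.

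Upstream of the members, transcripts of the interferons themselves were close to absent. The 11 ligand genes together had 4, 0 and 0 counts in endothelial-gated cells, and none passed the floor in any gate. The 10 receptor and JAK-STAT genes all passed it in endothelial-gated cells. In aged against young 0 of 10 differed by 1.5-fold, against 12.0% higher and 9.61% lower over all genes. Ifnar1 and Ifnar2, the type I receptor chains, were at 47.0, 47.8 and 49.2 CPM and at 124, 105 and 128 CPM. The interferon-gamma receptor chains Ifngr1 and Ifngr2 were at 47.0, 46.8 and 53.2 and at 20.5, 17.3 and 16.1 CPM. The type III receptor is built of Ifnlr1, with 12, 10 and 8 counts, and Il10rb, at 57.8, 55.9 and 72.5 CPM. Of the kinases, Jak1 was at 115, 150 and 131 CPM, with an interval above 0 in aged against young (0.38, 0.06 to 0.70), Jak2 at 53.6, 44.8 and 42.7 and Tyk2 at 17.5, 24.4 and 28.2 CPM. Only Ifnlr1 was past 1.5-fold with D+Q, at −0.64 (−2.20 to 0.84), against 9.75% higher and 11.0% lower over all genes. In tubule-gated cells Ifnlr1 had 104, 100 and 102 counts (7.91, 11.4 and 7.53 CPM), at 0.53 (0.12 to 0.94) and −0.60 (−1.02 to −0.19). It was there too the only 1 of the 10 past 1.5-fold, in D+Q against aged, where 2.02% of all genes were higher and 2.15% lower.

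Of 55 other interferon-stimulated genes, 32 passed the floor in endothelial-gated cells. In aged against young 2 were higher and 7 lower by 1.5-fold, with a median of −0.35, against 12.0% higher and 9.61% lower over all genes. In D+Q against aged 8 were higher and 2 lower, with a median of 0.21, against 9.75% and 11.0%. Phf11d, a chromatin-linked gene, had 31, 4 and 28 counts, at −2.05 (−4.16 to −0.70) and 2.33 (0.96 to 4.44). Ifi203, of the DNA-binding PYHIN family, had 136, 52 and 134 counts (81.9, 52.9 and 108 CPM), at −0.62 (−1.12 to −0.16) and 1.02 (0.56 to 1.52). Its relative Ifi207 had 7, 13 and 26 counts, at 1.605 (0.22 to 3.22) and 0.64 (−0.35 to 1.75). Like the members, these values are scaled to the total of a gate in which levels of endothelial genes differed between the libraries. In tubule-gated cells 17 of the 55 passed the floor, 1 higher (Ly6e) and 0 lower in aged, against 4.60% and 3.62% of all genes. Their median in aged against young was −0.19 and that of all genes 0.06, with 7 above 0 and 10 below. Intervals lay above 0 for 2 of them and below 0 for 5. Below the floor, Cxcl10 had 25, 56 and 37 counts, at 1.74 (1.05 to 2.49) and −1.22 (−1.87 to −0.61). Oas1b had 5, 19 and 8 counts, at 2.42 (1.05 to 4.29), and Oasl1 4, 15 and 14 counts, at 2.37 (0.85 to 4.55). These genes were picked for the largest ratios among those with at least 30 counts. Oas1b and Oasl1 reach that number mainly through the libraries where they are high, so their ratios are no support for a difference of the list. Among 9 negative regulators Cish, a feedback inhibitor of cytokine receptors, had 212, 61 and 231 counts in tubule-gated cells (16.1, 6.98 and 17.1 CPM), low in the aged library only, at −1.20 (−1.64 to −0.79) and 1.28 (0.88 to 1.72). Distal tubule markers in the same cells summed to 3388, 2580.0 and 3531 CPM and urothelial markers to 77.8, 4.58 and 25.7 CPM, both also lowest in the aged library, and their part in the result was not tested. Of 14 sensors and adaptors upstream of interferon transcription, 6 passed the floor in tubule-gated cells. Irf5 had 151, 58 and 67 counts there, at −0.78 (−1.25 to −0.35). It was the 1 of these 6 lower by 1.5-fold in aged, and 0 were higher, against 3.62% and 4.60% of all genes.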

How the data were processed

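Per the labels' protocols, kidneys were digested with collagenase II, treated with red blood cell lysis buffer and loaded on a MobiCube 3′ single-cell set. The authors deposited raw UMI counts per gene and barcode. The submitters' processing notes name the builds GRCm39 and mm10 without a role, and no label names an aligner or counter. Barcodes with over 50% mitochondrial counts (385, 82 and 149 in young, aged and aged D+Q) or the highest Scrublet doublet scores at 0.8% per 1000 barcodes (541, 232 and 477) were left out. Automatic Scrublet thresholds marked 1, 0 and 1 barcodes. Clusters for alternatives came from scanpy 1.11.5. Marker gates left 1846, 1023 and 1304 kept barcodes ungated. Summed counts of each gate and library were scaled to CPM, 0.5 counts were added before taking log2 ratios, and ratio intervals were exact conditional binomial, level intervals exact Poisson and shares exact Clopper-Pearson, all at 95%. A member was counted as higher or lower from 1.5-fold, given 30 counts or more in the 3 libraries together and an average of 5 CPM. The ratio and motif steps were tested on simulated data. With 1 library per group no p-value was computed.

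Members with at least 20 counts in the higher library are given in all 3 libraries, and those past 1.5-fold are named. Of other lists, the genes with the largest ratios and at least 30 counts are named. The members and lists were chosen with earlier results of these data known. Alternatives were gates at 5 markers, a 25% mitochondrial limit, no doublet removal, clusters in place of gates, edgeR 4.0.16 TMM and median-of-ratios scaling, other floors, a prior of 2, cell means, the leading member left out and no thinning. Added after the values were seen were scaling to endothelial genes and leaving out 1 cluster. Some items are not reported here.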

Additional observations from a re-analysis of the deposited data

How the results depend on the processing

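No paired analysis was possible because each group has 1 library. The endothelial sum in aged against young, −0.42 as reported, reversed to 0.084 when scaled to the 12 gate markers and to 0.20 when scaled to 20 other endothelial genes, and moved to −0.56 in the Leiden cluster in which most cells pass the gate. The sum in aged D+Q against aged, 0.15 as reported, reversed to −0.48 and −0.52 under those scalings and moved to 0.34 in the cluster. In leukocytes the sum of −1.13 moved to −0.37 with 5 markers, where 0 members were lower. The cause was not tested. Over all alternatives the tubule sums ranged from −0.07 to 0.015 in aged against young and from −0.11 to −0.05 in D+Q against aged, and the leukocyte sum with D+Q from 0.0070 to 0.16.

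Counts of endothelial members by 1.5-fold in aged against young were 0 higher and 7 lower. They became 1 higher with no doublets left out and with means over cells, 13 lower in the cluster, and 1 higher with 11 lower both with no floor and with a floor of 10 counts and 1 CPM. With the gate-marker scaling they were 4 higher and 1 lower, and with the other endothelial genes 7 and 1. Against aged, D+Q counts of 1 higher and 4 lower became 2 lower with no doublets left out, 7 higher and 0 lower in the cluster, 2 higher with either other floor, and 0 higher with 13 or 14 lower under the endothelial scalings. Leukocyte counts of 0 and 1 in aged became 5 higher and 20 lower with no floor and 8 lower with the lower floor. Those of 0 and 0 with D+Q became 9 and 7 with no floor and 2 and 4 with the lower floor. Tubule counts of 1 and 1 in aged became 2 lower with TMM scaling, 6 higher and 3 lower with no floor and 5 higher with the lower floor. Those of 0 and 1 with D+Q became 4 and 5 with no floor and 4 lower with the lower floor. Fewer or more genes tested account for the changes under the other floors.

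Of 135 alternatives for single named members 128 stayed within counting error, 7 moved and 0 reversed, the 7 all under the endothelial scalings. Staying within counting error does not mean that a fold was kept, as many intervals are wide. By the other endothelial genes, Bst2, Oasl2, Xaf1 and Irgm2 in aged against young were at −0.16, −0.13, −0.18 and −0.07, with intervals that include 0. Of the members 1.5-fold lower in aged, only Ifi44 stayed so under both endothelial scalings. Without thinning, 7 of 9 shares of cells moved. No cluster held mostly leukocyte-gated cells, so that alternative was not run there.

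Depth limits most members in leukocyte-gated cells, where 3 counts, the limit that a count of 0 allows, are 38.7, 25.5 and 35.0 CPM.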

Other observations

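Gbp2 was among the leading genes of a small cluster of cells found by Leiden clustering, in which 2, 5 and 2 cells passed the tubule gate. The cluster had 8, 35 and 10 cells in young, aged and aged D+Q and had Pkhd1l1, Lrrn4, Muc16, Slpi, C3, Igfbp6 and Upk3b among its other leading genes. Its cells had 0, 140 and 2 Gbp2 UMIs, or 1565 CPM in the aged library and 60.5 in aged D+Q. The cluster was 0.104%, 0.613% and 0.135% of kept cells. It was looked for after the Gbp2 values were seen, and it rests on 1 library per group.

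Ly6e, an interferon-stimulated gene that restrains virus entry, was chosen after its values were seen. In tubule-gated cells it had 989, 1014 and 2674 counts, or 75.2, 116 and 197 CPM, with log2 ratios of 0.63 (0.50 to 0.75) in aged against young and 0.77 (0.66 to 0.87) in D+Q against aged. In endothelial-gated cells it was at 274.5, 288 and 389 CPM, with ratios of 0.07 (−0.15 to 0.29) and 0.43 (0.22 to 0.65).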
